A study of Mus musculus with 24 samples.

Results

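The effect of a low protein diet on gene expression was measured in the kidney cortex of aged wild type mice. The comparison takes 12 of the 24 libraries in the series, namely the 6 libraries of wild type mice on the low protein diet (LP) and the 6 of wild type mice on the normal protein diet (NP), chosen by genotype and diet as labelled. All mice were male, on the C57BL6/J background, and 22 months old at collection. The LP diet held 5% protein and the NP diet 20%, with casein as the protein source of both. Each diet was given from 3 months of age and eaten ad libitum, so the groups differed in diet over most of adult life. The other 12 libraries came from FGF21 knockout (KO) mice on the same LP and NP diets, 6 of each, and are used here only where wild type is set beside them. Each library came from a small piece of cortex of 1 mouse, and replicate numbers are names that pair no mice across groups.

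Dietary protein supplies amino acids for growth and repair, and its nitrogen and acid load are handled largely by the kidney, which excretes urea and ammonium and reabsorbs filtered amino acids. Low protein intake raises circulating FGF21, a hormone made mainly by the liver that acts through the receptor FGFR1 and its coreceptor beta-klotho. The wild type mice carry that hormone, whereas the KO mice lack it. Fgf21 and Klb, the gene of beta-klotho, were not analysed here.

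The 12 wild type libraries held 15163840 to 18430124 counts in LP and 10576431 to 21063652 counts in NP kidneys, and 16749 to 16888 genes were detected in LP and 16773 to 16878 in NP kidneys. Mitochondrially encoded genes took 25.9 ± 1.23% of counts in LP and 25.3 ± 1.97% in NP kidneys (SD, n = 6 each), a difference smaller than the spread within groups (exact permutation test, two-sided, p = 0.623, adjusted p = 0.911 over 19 library measures). Markers of the labelled tissue were present, since all 13 markers of proximal tubule S1 and S2 and all 12 podocyte markers passed the filter on low counts. Of the markers of adrenal, a neighbouring tissue, 1 of 10 did. The index number in each sample's description follows the groups and no batch is labelled, so a batch that followed the groups and the diet cannot be told apart.

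Whole libraries did not separate by diet on the first 2 principal components. Over the 10396 genes that averaged 5 or more CPM (counts scaled by library size), the Pearson correlation of log2 CPM between an LP and an NP library was 0.978 at the median (36 pairs, 0.945 to 0.990), beside 0.980 between LP libraries (15 pairs) and 0.977 between NP libraries (15 pairs), across genes that are not independent replicates. The first principal component carried 37.0% of the variance. WT_NP replicate 1 lay at one end of it with a score of 34.0, followed by WT_LP replicates 3 and 4 at 21.1 and 12.9, while the other 9 libraries lay between -19.4 and 4.88. WT_NP replicate 1 also had the lowest mean correlation with the other 11 libraries, 0.960 against 0.974 to 0.980, and the highest marker levels of macrophages, T cells and B cells in its group. Several results are given with and without this library.

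**Figure D1:**
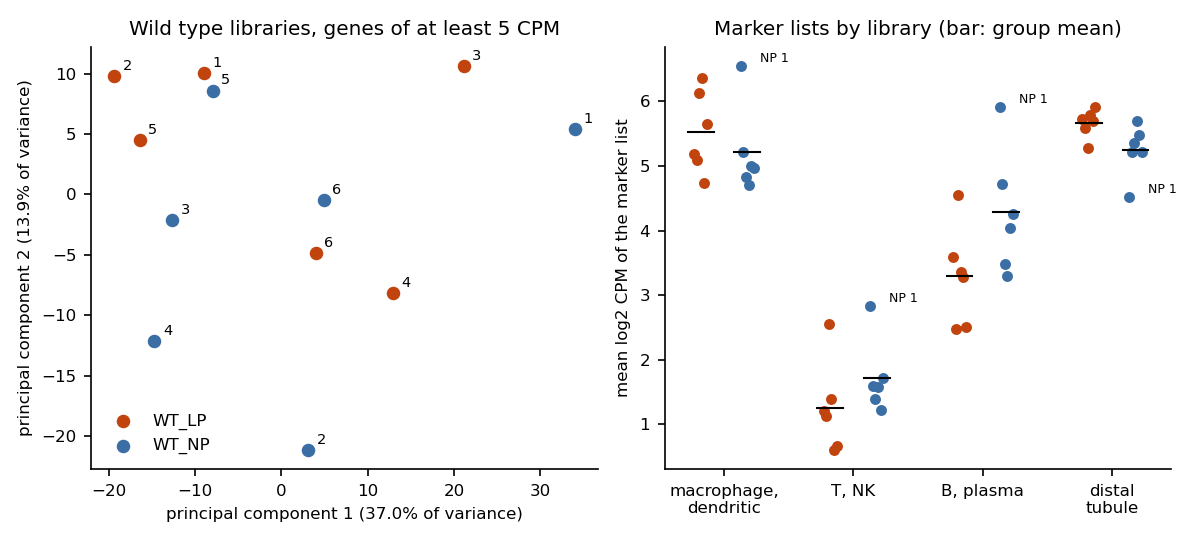
Left, the 12 wild type libraries on the first 2 principal components of log2 CPM (percent of variance on each axis), with replicate numbers beside the points. Right, mean log2 CPM of 4 marker lists in each library, LP left of NP, with a bar at each group mean; WT_NP replicate 1 is highest of its group in the 3 immune lists and lowest in the distal tubule list.

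No gene reached an adjusted p under 0.05 for LP against NP in wild type kidney, 0% of the 15165 genes tested (edgeR quasi-likelihood test, Benjamini-Hochberg adjustment over all genes tested). The smallest adjusted p was 0.0931, shared by Rarres2, S100g and Nr1d1. At an unadjusted p under 0.05 there were 580 genes (3.82%), fewer than the 758 that an even spread of p-values would give, with 257 higher (1.69%) and 323 lower (2.13%) in LP kidneys. DESeq2 on the same counts called 16 genes at an adjusted p under 0.05, limma with voom called 6, and limma on the authors' normalized values called 0. Without WT_NP replicate 1, edgeR called 0 genes and 677 had an unadjusted p under 0.05. The 6 genes that voom called were Rarres2, Nr1d1, Elovl2, Scd1, S100g and Gstm1, and the same 6 were among the 16 that DESeq2 called. Unlike edgeR and voom, DESeq2 also called Calb1 (adjusted p = 0.0206), Gsta2 (0.00389), Cdkn1c (0.00449), Banp (0.00777) and Adgrl1 (0.0080), among others.

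Most genes differed little between the diets, and the replicates were tight enough to bound those differences. The median size of the log2 fold was 0.085 and its median standard error 0.14. A 90th percentile of 0.33 and a 99th percentile of 0.92 describe the tails. The 95% interval of the fold lay inside 2-fold in either direction for 13622 genes (89.8%) and inside 1.5-fold for 10434 (68.8%). Precision went with depth. Among the 10396 genes of at least 5 CPM, 97.6% had intervals inside 2-fold and 88.8% inside 1.5-fold, whereas among the 4769 genes under 5 CPM the shares were 73.0% and 25.2%. The spread between mice of one group was alike in both diets, with a median SD of log2 CPM of 0.17 in LP and 0.18 in NP kidneys over the genes of at least 5 CPM.

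**Figure D2:**
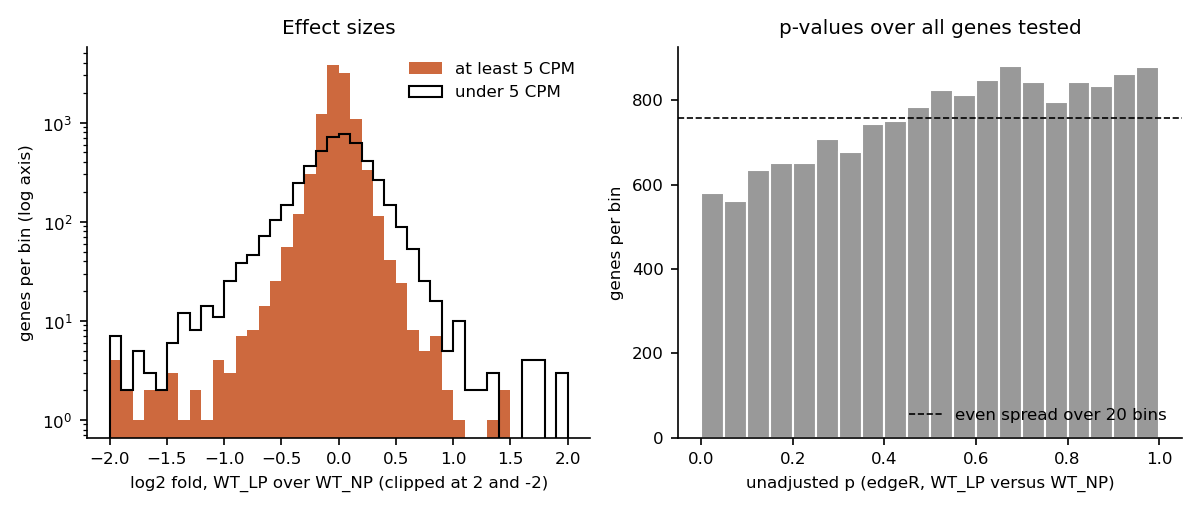
Left, number of genes (log axis) by fitted log2 fold of LP over NP in wild type kidney, for genes of at least 5 CPM (filled) and under 5 CPM (outline). Right, number of genes by unadjusted p, with a dashed line at an even spread; the bin under 0.05 holds 580 of 15165 genes, below the line at 758.

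Differences beyond 2-fold were few and mostly in one direction. Of the genes of at least 5 CPM, 26 had a log2 fold beyond 1 in size, with 22 lower and 4 higher in LP kidneys. The 4 higher ones were S100g, Cish, Cyp4a14 and 9030619P08Rik, which were chosen after their values were seen. Over all genes tested 47.5% had a log2 fold above 0 and 52.5% below 0, and 124 had a log2 fold beyond 1 in size, 92 lower and 32 higher. Among the 22 lower genes of at least 5 CPM were Rarres2, Scd1, Slc38a3 and Igkc (log2 fold -1.85), a B and plasma cell marker. Markers of B and plasma cells were highest in WT_NP replicate 1. How far the counts beyond 2-fold rest on that library is not given here.

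Gene by gene, complete separation of the groups was uncommon. In 44 of 15165 genes (0.29%) the 6 LP and 6 NP libraries did not overlap in CPM, 18 of them higher (0.119%) and 26 lower (0.171%) in LP kidneys. If the order of the libraries were random, a gene would separate completely with a probability of 0.00216. Without WT_NP replicate 1 the count was 74, and that probability is higher with 1 library fewer. In 1308 genes (8.63%) all 6 LP libraries lay on the fitted side of the NP mean. The 24 genes named by rank, the 12 with the smallest p in each direction among genes of at least 5 CPM, held 12 of the non-overlapping genes, 6 higher and 6 lower. In all 24 the 6 LP libraries lay on one side of the NP mean, which the ranking by p favours. Each library lay on its own group's side of the midpoint between group means in 19 (WT_NP replicate 4) to 24 (WT_LP replicate 6) of these 24 genes. WT_NP replicate 1, for all its distance on the first component, did so in 23.

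**Figure D3:**
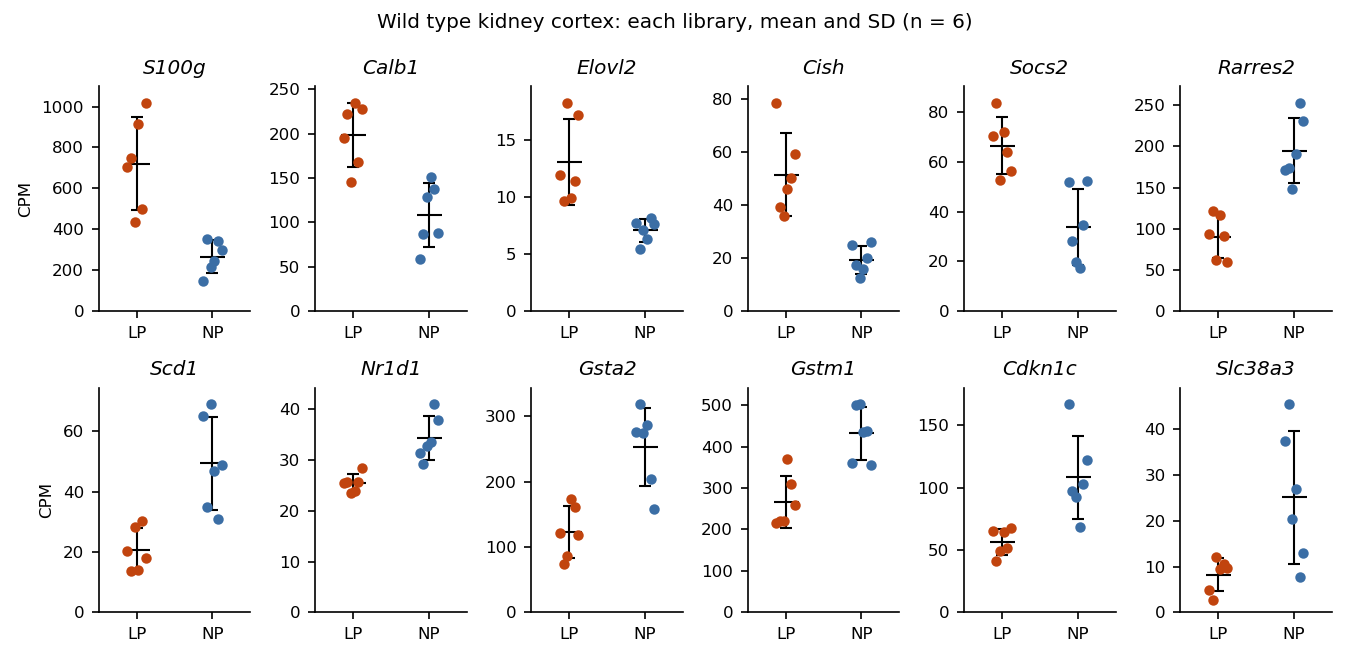
CPM of 12 genes in each wild type library, LP left of NP, with mean and SD (n = 6 each) in black and axes from 0. S100g, Elovl2, Cish, Socs2, Rarres2, Scd1, Nr1d1 and Cdkn1c show no overlap between the groups, whereas Calb1 alone of the higher genes drawn, with Gsta2, Gstm1 and Slc38a3 of the lower ones, does.

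Among the higher genes with the smallest p were 2 that handle calcium in the distal nephron, S100g and Calb1. S100g, which encodes the calcium-binding protein calbindin-D9k, had 435, 727 and 1019 CPM in the LP kidneys (lowest, median and highest), against 146, 270.0 and 351 CPM in the NP kidneys. The lowest LP kidney lay above the highest NP kidney, and WT_NP replicate 1 was the lowest of all. Its log2 fold was 1.44 (SE 0.27, 95% interval 0.89 to 1.99, adjusted p = 0.0931), and without that library 1.31 (adjusted p = 0.206). S100g lies at chrX:162961992-162964599 (GRCm38, minus strand) inside the span of Ctps2 on the opposite strand. Whether the authors' counting used strand is not given in the sources used here, and Ctps2 itself had a log2 fold of -0.03 (SE 0.08).

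Calb1, the gene of calbindin-D28k, had 145, 208 and 235 CPM in the LP kidneys, against 58.2, 108 and 151 CPM in the NP kidneys. The groups overlapped through 1 LP kidney (WT_LP replicate 3, at 145 CPM) and 1 NP kidney (WT_NP replicate 4, at 151 CPM), with a log2 fold of 0.88 (SE 0.20, adjusted p = 0.286), and of 0.75 without WT_NP replicate 1 (adjusted p = 0.614). Trpv5, the apical calcium channel of the same cells, was chosen after its values were seen, since its mean is just under 5 CPM. It averaged 5.54 ± 0.970 CPM in LP and 4.10 ± 0.456 CPM in NP kidneys (log2 fold 0.44, SE 0.15, unadjusted p = 0.00903, adjusted p = 1). Pvalb, the calcium buffer of the early distal convoluted tubule, had a log2 fold of 0.77 with an SE of 0.44.

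The promoter of S100g is printed because this gene had the largest log2 fold of the non-overlapping genes of at least 5 CPM. Calbindin-D9k is a known target of vitamin D, whose receptor binds pairs of half-sites resembling AGGTCA. The 250 bases before the RefSeq start site, read 5′ to 3′ on the minus strand (GRCm38.p6, chrX:162964600-162964849), hold that motif in its exact letters on either strand at the positions in capitals, with first bases 220 and 107 bases upstream of the start site.
S100g: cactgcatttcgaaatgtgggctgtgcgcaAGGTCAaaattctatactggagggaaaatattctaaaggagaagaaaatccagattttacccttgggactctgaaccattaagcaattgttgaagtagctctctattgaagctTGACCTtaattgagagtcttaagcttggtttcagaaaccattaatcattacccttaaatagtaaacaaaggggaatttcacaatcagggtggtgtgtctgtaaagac
Of 27025 mouse promoters of the same window in RefSeq, 13.8% hold at least 1 match on either strand and 1.32% hold 2 or more. The 2 matches in the S100g promoter lie on opposite strands and are not next to each other. A match is a description of letters and not a binding site. The vitamin D and phosphate list as a whole had a median log2 fold of 0.02 over 10 tested members, none at an unadjusted p under 0.05, and Cyp24a1, the enzyme that degrades vitamin D, had a log2 fold of -0.66 (SE 0.34).

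Of the 10 tested genes of distal calcium transport, 8 had a log2 fold above 0, with a median of 0.43, against 47.5% and a median of -0.01 over all genes tested. None was called, 3 were higher at an unadjusted p under 0.05 (S100g, Calb1 and Trpv5; 1.69% of all genes), and 1 did not overlap (0.119% of all genes in that direction). The median lay between 0.36 and 0.50 when each wild type library was left out in turn. Distal convoluted and connecting tubule markers, a list of 15 tested genes that shares 5 with the calcium list, had 14 members above 0 and a median of 0.26, or 0.13 without WT_NP replicate 1. Their summed level ran from 1797 to 2982 CPM in LP and from 1005 to 2137 CPM in NP kidneys. The mean log2 CPM of this list, which holds S100g and Calb1, was 0.42 higher in LP kidneys (exact permutation test, two-sided, p = 0.0303, adjusted p = 0.576 over 19 library measures). The 10 members outside the calcium list summed to 1192 to 1675 CPM in LP and 792 to 1692 CPM in NP kidneys, with 9 above 0, a median of 0.18 and 1 at an unadjusted p under 0.05 (3.82% of all genes). The part of these other markers in the S100g and Calb1 result was not tested, and in pieces of tissue more cells of a type and more RNA per cell cannot be told apart.

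Cish and Socs2, both among the 12 higher genes by rank, encode suppressors of cytokine signalling that are switched on through STAT5. Cish had 35.8, 48.1 and 78.8 CPM in the LP kidneys, against 12.4, 18.7 and 26.0 CPM in the NP kidneys, with no overlap (log2 fold 1.41, SE 0.38, adjusted p = 0.6). Socs2 had 52.9, 67.3 and 83.9 CPM in the LP kidneys, against 17.3, 31.3 and 52.2 CPM in the NP kidneys. The groups did not overlap, but the lowest LP kidney, at 52.9 CPM, stood next to the highest NP kidney, at 52.2 CPM, and the log2 fold was 0.97 (SE 0.28, adjusted p = 0.728). Igfals encodes the acid-labile subunit that carries insulin-like growth factors in blood and is induced by growth hormone in liver. It averaged 11.3 ± 2.04 CPM in LP and 7.74 ± 1.91 CPM in NP kidneys, with overlapping groups (log2 fold 0.55, SE 0.17, adjusted p = 0.82). Bcl6, a transcriptional repressor that STAT5 switches off in liver, averaged 16.7 ± 8.29 CPM in LP and 39.2 ± 13.5 CPM in NP kidneys (log2 fold -1.23, SE 0.39, adjusted p = 0.82). Igfals and Bcl6 were chosen after their values were seen, and no list of STAT5 targets was tested.

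Elovl2, which elongates long polyunsaturated fatty acids, had 9.63, 11.7 and 18.3 CPM in the LP kidneys, against 5.48, 7.37 and 8.20 CPM in the NP kidneys. Every LP kidney lay above every NP kidney (log2 fold 0.89, SE 0.18, adjusted p = 0.125). Scd1, which desaturates stearate and palmitate, pointed the other way with 13.8, 19.2 and 30.3 CPM in the LP kidneys, against 31.0, 48.0 and 69.0 CPM in the NP kidneys. The gap between the highest LP kidney (WT_LP replicate 5) and the lowest NP kidney (WT_NP replicate 5) was under 1 CPM (log2 fold -1.24, SE 0.24, adjusted p = 0.118). The lipid synthesis list as a whole showed no common direction. Of the 21 tested genes in that list, 10 lay above and 11 below 0, with a median log2 fold near 0, and Fasn, the fatty acid synthase, had -0.28 (SE 0.10). Mgll, which releases fatty acids from monoglycerides, had 62.0, 70.2 and 109.8 CPM in the LP kidneys, against 35.1, 53.6 and 57.1 CPM in the NP kidneys, with no overlap (log2 fold 0.59, SE 0.25, adjusted p = 1).

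The remaining higher genes among the 12 by rank had smaller folds. Rtkn and Mmgt2, a magnesium transporter, did not overlap between the groups, with log2 folds of 0.34 (SE 0.09) and 0.52 (SE 0.15). Vwa1, a matrix protein, had 0.62 and Nmrk1, a kinase that makes NAD precursors, 0.43, both with overlapping groups. Nol4l, Zbtb10 and Zfp503, the last 2 of them zinc finger proteins, had 0.55, 0.33 and 0.31. The remaining non-overlapping genes ranked by fold were Ihh, the hedgehog ligand, at 0.55, and Fkbp11, a prolyl isomerase of the secretory pathway, at 0.52. Adjusted p-values of the 24 ran from 0.0931 to 0.745.

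The lowest p of all belonged to Rarres2, which encodes the adipokine and chemoattractant chemerin. Rarres2 had 59.4, 91.8 and 121 CPM in the LP kidneys, against 148, 183 and 253 CPM in the NP kidneys. All 6 LP kidneys lay below all 6 NP kidneys, and WT_NP replicates 5 and 6 were the highest. Its log2 fold was -1.11 (SE 0.20, 95% interval -1.51 to -0.70, adjusted p = 0.0931). Rarres2 (chr6:48569696-48572789, GRCm38, minus strand) overlaps the end of Lrrc61 on the opposite strand, which had a log2 fold of 0.13 (SE 0.09).

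Nr1d1, which encodes the clock repressor REV-ERB alpha, had 23.4, 25.6 and 28.4 CPM in the LP kidneys, against 29.1, 33.1 and 40.9 CPM in the NP kidneys, with no overlap. The log2 fold was -0.43 (SE 0.08, adjusted p = 0.0931). Thra, whose end it overlaps on the opposite strand at chr11:98767932-98775333 (GRCm38, minus strand), had -0.11 (SE 0.07). The clock list showed no common direction. Of 20 tested clock genes 10 lay above and 10 below 0, with a median log2 fold of -0.04, and only Nr1d1 and Bhlhe41 (log2 fold -0.54, SE 0.25) reached an unadjusted p under 0.05.

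Cdkn1c, which encodes the cell cycle inhibitor p57Kip2 and marks podocytes, had 41.3, 57.8 and 67.5 CPM in the LP kidneys, against 68.7, 99.9 and 167 CPM in the NP kidneys. The highest LP kidney, at 67.5 CPM, lay just below the lowest NP kidney, WT_NP replicate 4 at 68.7 CPM (log2 fold -0.94, SE 0.20, adjusted p = 0.131). The list of 12 podocyte markers that holds it had a median of -0.06, and Cdkn1c was its only member at an unadjusted p under 0.05. Stc1, which encodes the calcium and phosphate hormone stanniocalcin 1, had 7.45, 8.83 and 11.6 CPM in the LP kidneys, against 11.7, 14.8 and 21.2 CPM in the NP kidneys, without overlap (log2 fold -0.72, SE 0.18, adjusted p = 0.545). Banp, a DNA-binding protein of the nuclear matrix, and Adgrl1, an adhesion receptor, had overlapping groups and log2 folds of -0.84 (SE 0.18) and -0.43 (SE 0.09). Tspan7, a tetraspanin, had -0.44, and Lad1, a basement membrane filament protein, -0.43 with no overlap.

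Genes of glutathione conjugation and the NRF2 response formed a group on the lower side. NRF2 is a transcription factor that switches on detoxifying enzymes under oxidative or electrophilic stress. Gstm1, a glutathione transferase, had 215, 239.5 and 369 CPM in the LP kidneys, against 356, 436 and 502 CPM in the NP kidneys. The groups overlapped through WT_LP replicate 4 at 369 CPM (log2 fold -0.70, SE 0.15, adjusted p = 0.131). Gsta2, an alpha class transferase, had 73.9, 120.4 and 173 CPM in the LP kidneys, against 159, 276 and 318 CPM in the NP kidneys. WT_NP replicate 6 was the lowest of its group and lay among the LP kidneys (log2 fold -1.05, SE 0.22, adjusted p = 0.131). Gsta2 has a near-identical copy, Gsta1, with which it may share reads, so its level is uncertain.

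Abcc4, an exporter of organic anions and nucleotides, had 28.2, 31.1 and 52.6 CPM in the LP kidneys, against 54.1, 60.0 and 73.2 CPM in the NP kidneys. The groups stood apart by less than 2 CPM, between WT_LP and WT_NP replicates 5 (log2 fold -0.80, SE 0.21, adjusted p = 0.598). Nqo1, a quinone reductase, had 16.1, 22.0 and 32.0 CPM in the LP kidneys, against 33.0, 36.5 and 46.3 CPM in the NP kidneys, also without overlap (log2 fold -0.69, SE 0.35, adjusted p = 1). Pgd, an NADPH-generating enzyme, did not overlap either and had a log2 fold of -0.32 (SE 0.16). Mgst1, a microsomal glutathione transferase outside the list and chosen after its values were seen, did not overlap and had -0.41 (SE 0.36).

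Of the 29 tested NRF2 and glutathione genes, 27 had a log2 fold below 0, against 52.5% of all genes, and the median was -0.14 against -0.01. Separation without overlap was seen in 3 of the 29 (Abcc4, Nqo1 and Pgd), beside 0.171% of all genes in that direction. An unadjusted p under 0.05 was reached by 4 on the lower side (2.13% of all genes) and by 1, Gstm5, on the higher (1.69%). None was called. The median without WT_NP replicate 1 was -0.18, and leaving out any other library kept it between -0.18 and -0.13.

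**Figure D4:**
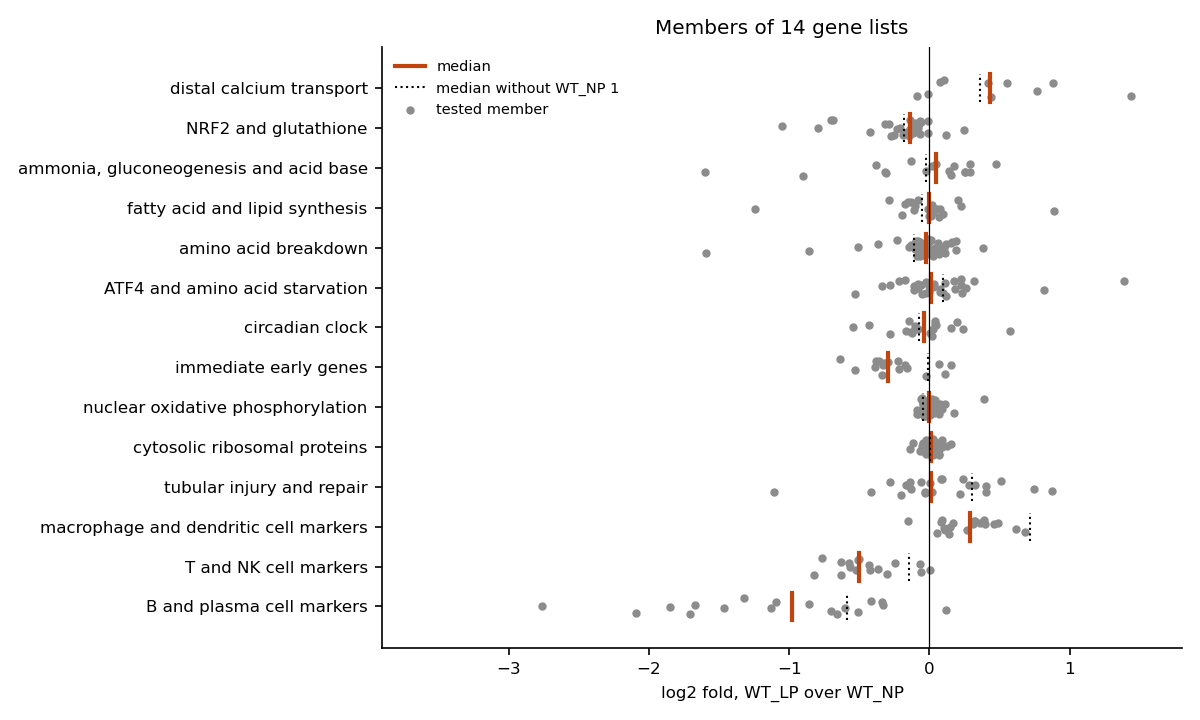
Log2 fold of LP over NP in wild type kidney for each tested member (grey points) of 14 gene lists, with the median of all 12 libraries (solid line) and without WT_NP replicate 1 (dotted line). Distal calcium transport lies right of 0 and NRF2 and glutathione left of 0 on both lines, while the immune and immediate early medians differ between the lines.

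Genes of ammonia production and gluconeogenesis showed no common direction. Slc38a3, the glutamine transporter that feeds ammonia production in the proximal tubule, had 2.75, 9.60 and 12.1 CPM in the LP kidneys, against 7.67, 23.7 and 45.5 CPM in the NP kidneys. WT_NP replicate 5 lay among the LP kidneys, WT_NP replicate 6 just above the highest of them at 12.9 CPM, and the other 4 NP kidneys well above. Its log2 fold of -1.60 (SE 0.46) had an unadjusted p of 0.00206 and an adjusted p of 0.728. Pck1, the first committed enzyme of gluconeogenesis, had 948, 1422 and 2003 CPM in the LP kidneys, against 919, 2476 and 5464 CPM in the NP kidneys. The same NP pair was lowest, with WT_NP replicate 5 below every LP kidney (log2 fold -0.90, SE 0.30).

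Fam25c and Bcat1 showed the same pair of NP kidneys among the LP values. Fam25c had 3.51 and 2.57 CPM in WT_NP replicates 5 and 6, with a log2 fold of -1.43 (SE 0.38). Bcat1, a branched-chain aminotransferase, had 4.21 and 8.55 CPM in them, with a log2 fold of -1.60 (SE 0.48). This likeness was noticed after the values were seen. Car4, the apical carbonic anhydrase, had a log2 fold of 0.48 (SE 0.19). Over the 17 tested members of the list 10 lay above 0, the median was 0.05, and 1 higher and 4 lower members had an unadjusted p under 0.05 (1.69% and 2.13% of all genes).

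Pathways that handle amino acids and energy showed medians near 0 in wild type kidney. Amino acid breakdown had a median of -0.02 over 44 tested genes, with 4 lower at an unadjusted p under 0.05 (2.13% of all genes). Amino acid transporters of the proximal tubule had -0.01 over 16 and genes of ATF4 and amino acid starvation 0.01 over 32. Nuclear oxidative phosphorylation had a median near 0 over 67 genes, cytosolic ribosomal proteins 0.01 over 52, and fatty acid oxidation 0.02 over 30. Of the members of these last 3 lists none reached an unadjusted p under 0.05. Amt, which belongs to the glycine cleavage system, had a log2 fold of -0.23 (SE 0.10). Trib3, a pseudokinase induced by ATF4 and chosen after its values were seen, had 1.39, and its LP values of 0.899, 1.04 and 11.2 CPM (lowest, median and highest) show 1 kidney, WT_LP replicate 3, far above the rest.

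Immune cell transcripts varied widely between mice within each diet. B and plasma cell markers were below 0 in 17 of 18 tested genes (52.5% of all genes), with a median log2 fold of -0.98, and 7 were lower at an unadjusted p under 0.05 (2.13% of all genes). Igkc, the kappa light chain, had 308, 1073 and 1899.5 CPM in the LP kidneys, against 808, 2027 and 10608 CPM in the NP kidneys, and WT_NP replicates 1 and 2 held the highest levels, with a log2 fold of -1.85 (SE 0.59). Jchain, which joins immunoglobulin chains in plasma cells, had -1.67 (SE 0.59). The summed level of the list ran from 702 to 3475 CPM in LP and from 1418 to 16801 CPM in NP kidneys. T and NK cell markers had a median of -0.50 and macrophage and dendritic cell markers 0.29, with none of their 17 and 20 tested members at an unadjusted p under 0.05.

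Without WT_NP replicate 1 those medians were -0.59 for B and plasma cells, -0.14 for T and NK cells and 0.72 for macrophages and dendritic cells. Leaving out WT_LP replicate 3, the LP kidney nearest to it on the first component, gave -1.58, -0.85 and 0.17 in the same order. Without WT_LP replicate 4 the macrophage and dendritic cell median was 0.04. Immediate early genes, which include Dusp1 and Klf2, had a median of -0.30, against -0.01 without WT_NP replicate 1. Tubular injury genes had 0.01, against 0.30 without it, and interferon genes -0.04 against 0.15. The median of each of these lists thus depends on single libraries, and their part in the leading genes was not tested.

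Over all 42 lists no member was called, and medians ran from -0.98 for B and plasma cells to 0.43 for distal calcium transport. Among markers of the other nephron segments the medians were 0.09 for proximal tubule S1 and S2, -0.03 for S3, -0.10 for the thick ascending limb, -0.05 for principal cells and 0.17 for intercalated cells. Medulla markers, chosen to follow inner kidney that a piece of cortex could carry along, had -0.24 over 10 tested genes, or -0.14 without WT_NP replicate 1. Endothelial markers had 0.07 and red cell transcripts -0.12. Sterol synthesis had -0.05 over 24 genes, the unfolded protein response -0.06 over 27, cytochrome P450 and conjugation -0.08 over 22, and organic anion and cation transporters -0.02 over 24. Genes of the renin, angiotensin and kallikrein systems had 0.19 over 12, and glucocorticoid and fasting genes -0.16 over 20.

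In KO kidneys on the same diets 1087 of the 15165 genes (7.17%) had an adjusted p under 0.05, and the median size of the log2 fold was 0.19, against 0.085 in wild type with nearly the same median standard error. The KO libraries held 8469102 to 16290522 counts. The difference between the LP effects of the genotypes, tested as wild type minus KO, was called for 0 genes (0%), with a smallest adjusted p of 0.158. An unadjusted p under 0.05 was reached by 2430 genes (16%), more than the 758 that an even spread of p-values would give. Over all genes 50.9% had the same sign in wild type and KO. The 2 comparisons share no libraries, so the sign and fold in KO come from other mice than those in which genes were chosen. The p-values of both comparisons, however, rest on a spread pooled over all groups in the same fit. Calls in KO among genes chosen in wild type are therefore not independent of that choice.

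Of the 24 wild type genes named by rank, 18 had the same sign in KO, 8 of 12 higher and 10 of 12 lower. Their median size of log2 fold was 0.76 in wild type, where they were chosen for small p, and 0.28 in KO. Over all genes tested, 1087 of 15165 (7.17%) were called in KO, 616 of them with the wild type sign. Of the 24, 5 were called in KO, all with the sign seen in wild type. Socs2 rose with a log2 fold of 0.94 (adjusted p = 0.0474), Elovl2 with 0.87 (adjusted p = 0.0156) and Mmgt2 with 0.50 (adjusted p = 0.0494) in KO kidneys on LP. Gsta2 fell with -0.74 (adjusted p = 0.0438) and Adgrl1 with -0.40 (adjusted p = 0.0195). Of the 44 non-overlapping genes 30 had the same sign in KO (68.2%, against 50.9% of all genes). Among them 7 were called in KO (15.9%, against 7.17% of all genes), each with the wild type sign.

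For the calcium genes, no difference between the genotypes passed its test. S100g had a log2 fold of 1.44 in wild type and 0.38 in KO, and Calb1 0.88 and -0.50. Trpv5 had 0.44 in wild type and 0.37 in KO, a difference with an unadjusted p of 0.778. The Calb1 difference had an unadjusted p of 7.87e-05 and an adjusted p of 0.158. The calcium list had a median of 0.43 in wild type and -0.18 in KO, and the NRF2 and glutathione list -0.14 and -0.01. Cish had 1.41 and 0.07, Rarres2 -1.11 and -0.28, Scd1 -1.24 and -0.65, and Nr1d1 -0.43 and -0.07. In the 24 genes the adjusted p of the difference ran from 0.158 to 0.983, and 12 had an unadjusted p under 0.05 (16% of all genes). The difference holds the wild type effect by which these genes were chosen, so that choice favours a small p for the difference.

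**Figure D5:**
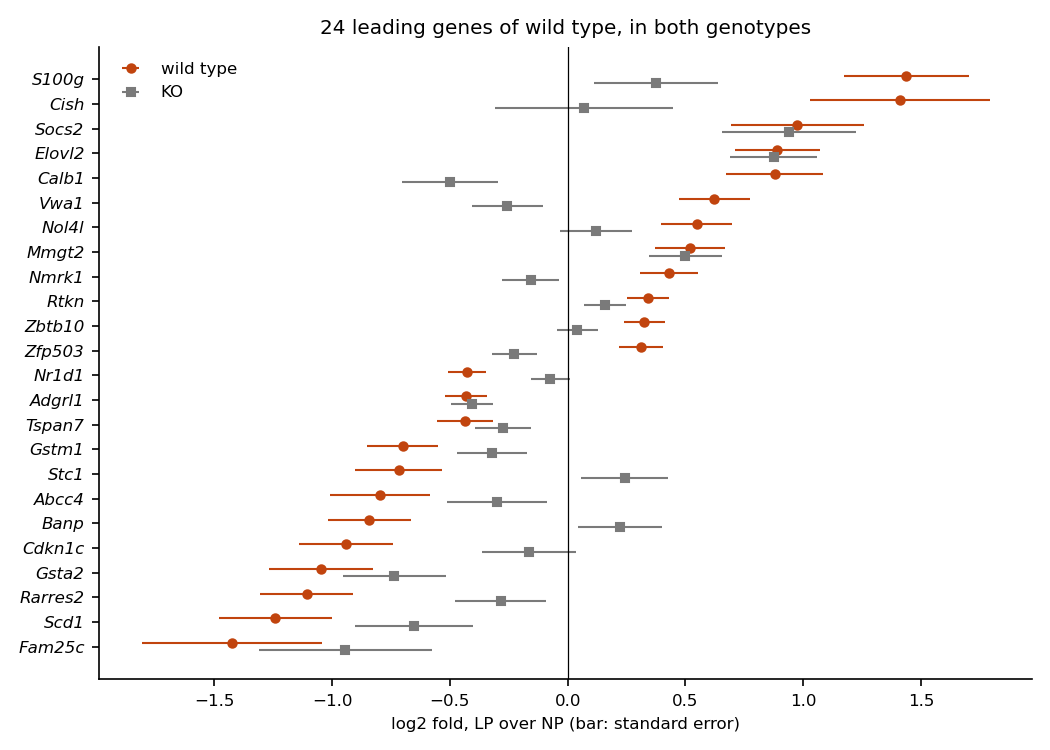
Fitted log2 fold of LP over NP with its standard error for the 24 genes named by rank in wild type, in wild type (circles) and in KO (squares). The wild type values were chosen for small p; in KO 18 of the 24 have the same sign, with Calb1, Vwa1, Nmrk1 and Zfp503 of the higher and Stc1 and Banp of the lower genes on the other side of 0.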

How the data were processed

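The kidney cortex libraries were Lexogen QuantSeq, which reads the 3′ end of transcripts, with forward reads of 50 bases, per the labels' protocols. The authors deposited raw counts per gene for 16921 genes, with a lowest mean count of 3, and a normalized signal equal to the counts divided by 1 factor per library. GRCm38 and DESeq2 1.22.2 are named in the submitters' processing notes. Which aligner and counter were used is not given in the sources used here. Symbols came from the deposited table for 14208 identifiers and from GENCODE M21, with coordinates, for 2668 more, which left 45 with none.

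Counts were fitted with edgeR 4.0.16 in R 4.3.3: filterByExpr on 4 groups (15165 genes kept, 1756 below it), TMM factors, and 1 robust quasi-likelihood fit of 4 group means over 24 libraries. Sharing 1 fit pools the spread of all groups. Two-sided p-values were adjusted by Benjamini and Hochberg's method over all 15165 genes, with a call at an adjusted p under 0.05. CPM are scaled by library size and factor, and values after ± are SD over 6 mice. The fitted standard error is the log2 fold divided by the root of the F statistic. Single library measures used exact permutation tests, whose smallest p for 6 against 6 is 0.00216. The fit was also run on simulated counts with 200 changed genes, and the outcome is not given here. Those counts were drawn independently for each gene, so variation shared by many genes within a library was not simulated.

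The comparison, the members and the gene lists were chosen with earlier results of these data known. Named genes, of at least 5 CPM and with a proper symbol, were the 12 smallest p in each direction, the 8 largest log2 folds in each direction among genes whose groups do not overlap, and up to 3 members of each of 42 lists by p. Alternatives were DESeq2 size factors, no filter, a filter of 5 CPM in 6 libraries, the 12 wild type libraries alone, limma 3.58.1 with voom weights, limma on log2 of the deposited normalized signal plus 1, DESeq2 1.42.0, 1 surrogate variable (sva 3.50.0), and leaving out each wild type library. Intervals on folds cover the spread between mice in the fit. Promoter sequence is from RefSeq.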

Additional observations from a re-analysis of the deposited data

Results flagged for a closer look

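In 120 groups of 6 values checked for a sample far from the others, 5 were marked, where chance alone marks about 1 in 20 groups. Trib3 in LP kidneys stood at 11.2 CPM in WT_LP replicate 3, with the next at 1.81 CPM. Mgll in NP kidneys stood at 35.1 CPM in WT_NP replicate 1, below the next at 52.1 CPM. WT_NP replicate 1 also stood apart in 3 marker lists, with a mean log2 CPM of 6.54 for macrophage and dendritic cell markers (next 5.22), 2.82 for T and NK cell markers (next 1.72) and 3.15 for intercalated cell markers (next 3.52). No difference between the LP effects of wild type and KO passed its test.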

How the results depend on the processing

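The count of 0 called genes was 16 with DESeq2, 6 with voom, and 0 to 1 when each wild type library was left out. The 1 gene, Gm2814, was called without WT_NP replicate 5. The 580 genes at an unadjusted p under 0.05 were 383 under the stricter filter, which tests fewer genes, 902 with 1 surrogate variable, for which the cause was not tested, and 460 to 819 without 1 library. The 44 genes without overlap were 28 under the stricter filter and 74 without WT_NP replicate 1, an alternative added after seeing the data, as were the list medians. Leaving out a library can only add such genes. The 41 genes followed through 20 alternatives gave 818 values, all in the direction reported, 17 of them newly past the threshold. The median of each list moved by less than 1 SD of its library means, but that SD is large for the immune lists. Between 13 and 18 of the first 20 genes by p were shared when a library was left out, and 11 to 19 in the other settings. No paired analysis was possible because the labels give each mouse its own identifier, with no number shared between groups. Depth limits the 4769 genes under 5 CPM, whose median standard error was 0.28 on the log2 scale, against 0.11 for the others.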
